A study of Homo sapiens with 18 samples.

Results

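The kallikrein-related peptidase genes KLK2, KLK3, KLK4 and KLK15 were followed across 6 treatments of LNCaP cells, an established human prostate cancer line that came from a metastasis in a lymph node. Every probe set that the deposited annotation assigns to one of these genes was taken, which gave 4 of 19178 named genes and 16 of 54613 probe sets: 4 for KLK2, 3 for KLK3, 5 for KLK4 and 4 for KLK15. Every group grew with 5% serum stripped of hormones, and exposure lasted 16 h. The groups were DHT (dihydrotestosterone, a natural androgen) at 100 nM, enzalutamide (an antiandrogen) at 1 or 10 µM, DHT at 100 nM together with enzalutamide at 1 or 10 µM, and the solvent DMSO (vehicle). Each group had 3 arrays, 18 in all. LNCaP is a single line. Separate cultures are not stated for the replicates, so p-values here reflect only how far these samples spread, and that spread may be technical.

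Kallikreins are secreted serine proteases. In the prostate, luminal epithelial cells release KLK3, better known as prostate-specific antigen or PSA, and its close relative KLK2 into seminal fluid, where KLK2 can activate the KLK3 precursor and KLK3 cuts the semenogelins that hold the coagulum together. KLK4 is a trypsin-like protease that also works in enamel formation, and KLK15, also called prostinogen, can activate the KLK3 precursor in vitro. Transcription of KLK2 and KLK3 is driven by androgens such as DHT, through DNA elements near these genes. Enzalutamide opposes androgens.

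The 4 genes lie in one cluster on chromosome 19. RefSeq places them on GRCh38.p14 at chr19:50825289-50833574 for KLK15, chr19:50854915-50860764 for KLK3, chr19:50873439-50880567 for KLK2 and chr19:50906351-50911395 for KLK4. KLK3 and KLK2 are transcribed from the plus strand, KLK15 and KLK4 from the minus strand. The 250 bases before the transcription start of KLK3 and KLK2 are printed because these genes held the probe sets that rose most with DHT. Capitals mark the stretch closest to the androgen response element consensus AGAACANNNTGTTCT, which reads the same on both strands. Both are written 5′ to 3′ on the plus strand, from chr19:50854665-50854914 and chr19:50873189-50873438.
KLK3: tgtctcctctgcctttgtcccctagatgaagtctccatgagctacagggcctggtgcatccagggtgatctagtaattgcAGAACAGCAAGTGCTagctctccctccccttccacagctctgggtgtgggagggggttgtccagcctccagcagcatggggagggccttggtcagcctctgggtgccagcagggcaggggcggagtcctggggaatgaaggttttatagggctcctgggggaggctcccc
KLK2: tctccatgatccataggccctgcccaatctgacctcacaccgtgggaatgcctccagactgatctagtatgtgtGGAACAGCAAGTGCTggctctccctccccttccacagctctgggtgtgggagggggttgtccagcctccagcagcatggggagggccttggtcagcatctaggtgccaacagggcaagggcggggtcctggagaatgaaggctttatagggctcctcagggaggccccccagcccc

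The best KLK3 stretch began 170 bases before the start and differed from the consensus at 2 of its 12 fixed letters. As few mismatches were found in 1.18% of the 35116 RefSeq windows of the same length. The best KLK2 stretch began 176 bases before the start and had 3 mismatches, and 9.17% of all windows held a stretch with 3 or fewer. Aligned end to end, the windows of these neighbours were identical in 205 of 259 columns (79.2%), with an unbroken shared run of 80 bases just downstream of the marked stretch. RefSeq holds 2 start sites each for KLK4 and KLK15, and no stretch in those windows came closer than 5 mismatches, which 85.4% of all windows reach. For comparison, the best stretch in each KLK15 and KLK4 window is given next, in capitals and on the minus strand.
KLK15, first window: AGCGCAGAGTGGGGT
KLK15, second window: AGAATTCCTCTTTGT
KLK4, first window: TTTCTACCTAGTTCT
KLK4, second window: AGGAGAGTGGAGTCT

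A match of letters is a description of these windows and not evidence of binding.

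Levels are log2 signal values, and a difference of 1 is a factor of 2 in signal. The median of all probe sets was 6.98. Averaged over the 18 arrays, 9 of the 16 kallikrein probe sets were at or above it. Probe sets are not compared with each other in level, since each has its own brightness. The cells carried the markers of their label: all 7 luminal prostate markers examined were bright, with means from 10.86 to 14.62, and all 3 neuroendocrine markers were below the median. Basal markers were at or above it for 2 of 3 genes, fibroblast markers for 3 of 4 and leukocyte markers for 1 of 4. Summed over a list, signal ranged between groups from 344 to 456 for basal, 1702 to 2584 for fibroblast and 242 to 367 for leukocyte markers. A part of other cell types in the results was not tested. Pairs of arrays correlated over the probe sets, which are no independent replicates, with r between 0.924 and 0.962 for the 18 pairs within groups and between 0.912 and 0.957 for the 135 pairs between groups. The ratio of 3′ to 5′ ACTB signal, a sign of RNA quality, was 4.50 in the second DHT replicate and 6.04 in the second replicate of enzalutamide 1 µM, and 1.42 to 1.80 elsewhere. Counts of calls with this pair of arrays dropped are given beside the main counts.

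DHT raised probe sets of all 4 genes, with the largest changes in KLK2 and KLK3. Of the 16 probe sets, 12 were called higher with DHT than with vehicle and none lower, while 5.72% of all probe sets were called, 2.6% higher and 3.12% lower. The called probe sets were 3 of 4 for KLK2, all 3 for KLK3, all 5 for KLK4 and 1 of 4 for KLK15. The median change of the 16 was 2.10 on the log2 scale, against -0.07 over all probe sets. The count was again 12 when the arrays with high ACTB ratios were dropped. In RNA from a whole culture, fewer cells of a type and less RNA per cell cannot be told apart.

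For KLK2, probe set 209854_s_at read 13.79, 13.74 and 13.64 with DHT and 4.02, 6.13 and 6.20 with vehicle. The groups lay far apart, and the vehicle arrays were below the median of all probe sets, so the size of the change is uncertain. The log2 change was 8.27 ± 0.41 (SE, n = 3 arrays each, adjusted p = 7.66e-10). Floored at the median of all probe sets, the change was still 6.74, the lowest value over the alternatives tried. Probe set 210339_s_at read 12.67, 11.86 and 12.52 with DHT and 7.08, 7.26 and 7.10 with vehicle, a change of 5.20 ± 0.53 (adjusted p = 4.1e-06). The lowest of these DHT values, 11.86, came from the DHT array with the high ACTB ratio. Probe set 209855_s_at rose by 5.94 ± 0.30 (adjusted p = 1.04e-09), with 10.35, 10.49 and 10.11 with DHT against 4.35, 4.57 and 4.20 with vehicle. The fourth KLK2 probe set, 1555545_at, stayed between 5.95 and 6.50 on these 6 arrays, with overlapping groups and a change of 0.12 (95% interval -0.62 to 0.86).

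KLK3 was bright before DHT was added. Probe set 204582_s_at read 14.30, 14.41 and 14.42 with DHT and 9.41, 9.41 and 9.75 with vehicle. That was a change of 4.86 ± 0.16 (adjusted p = 2.47e-11), or 29.0-fold in signal. The DHT values were close to the brightest probe set on each array, which lay between 14.70 and 15.43, and whether such bright spots still respond in proportion was not tested. Probe set 204583_x_at rose by 4.05 ± 0.24 (adjusted p = 7.85e-09), reading 14.18, 14.10 and 14.31 with DHT and 10.01, 10.05 and 10.38 with vehicle. Probe set 231629_x_at rose by 1.58 ± 0.19 (adjusted p = 2.49e-05). Its arrays read 11.53, 11.78 and 11.76 with DHT, against 9.88, 10.27 and 10.17 with vehicle. All 3 KLK3 probe sets separated DHT from vehicle without overlap, by amounts that differed between probe sets of the same gene. Names ending in _x_at or _s_at mark probe sets that can match more than 1 transcript, so signal from a related kallikrein could be shared among them.

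For KLK4, the change of the 5 probe sets ran from 0.73 to 3.33. Probe set 1555737_a_at read 11.46, 10.20 and 11.48 with DHT and 8.85, 8.95 and 8.97 with vehicle, a change of 2.12 ± 0.25 (adjusted p = 2.57e-05). The low DHT value belonged to the DHT array with the high ACTB ratio. The dimmer probe sets 233854_x_at and 224062_x_at rose by 3.33 ± 0.50 (adjusted p = 0.000309) and 2.29 ± 0.32 (adjusted p = 0.000158). Their vehicle means, 4.95 and 6.44, were below the median of all probe sets, so these sizes are uncertain. The brightest, 1555697_at, read 10.84, 10.21 and 10.68 with DHT against 9.79, 9.92 and 9.85 with vehicle, and rose by 0.73 ± 0.20 (adjusted p = 0.0389). Its call was lost in 8 of 18 fits that left out 1 array (adjusted p 0.0122 to 0.147), among them those without any 1 vehicle replicate or DHT replicate 1 or 3. That of 231782_s_at, with a change of 2.09 ± 0.59 (adjusted p = 0.0484), was lost in 14 of 18, and all of its values were below the median of all probe sets.

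For KLK15 a single probe set was called. Probe set 233477_at read 8.79, 9.02 and 8.76 with DHT and 7.84, 7.84 and 7.66 with vehicle, so the groups did not overlap. It rose by 1.08 ± 0.13 (adjusted p = 2.44e-05), or 2.11-fold. The other KLK15 probe sets were all dim: 221462_x_at changed by 0.96 (95% interval -0.03 to 1.95, adjusted p = 0.329), 234495_at by 0.58 (-0.53 to 1.70) and 234966_at by -0.62 (-1.64 to 0.39).

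**Figure D1:**
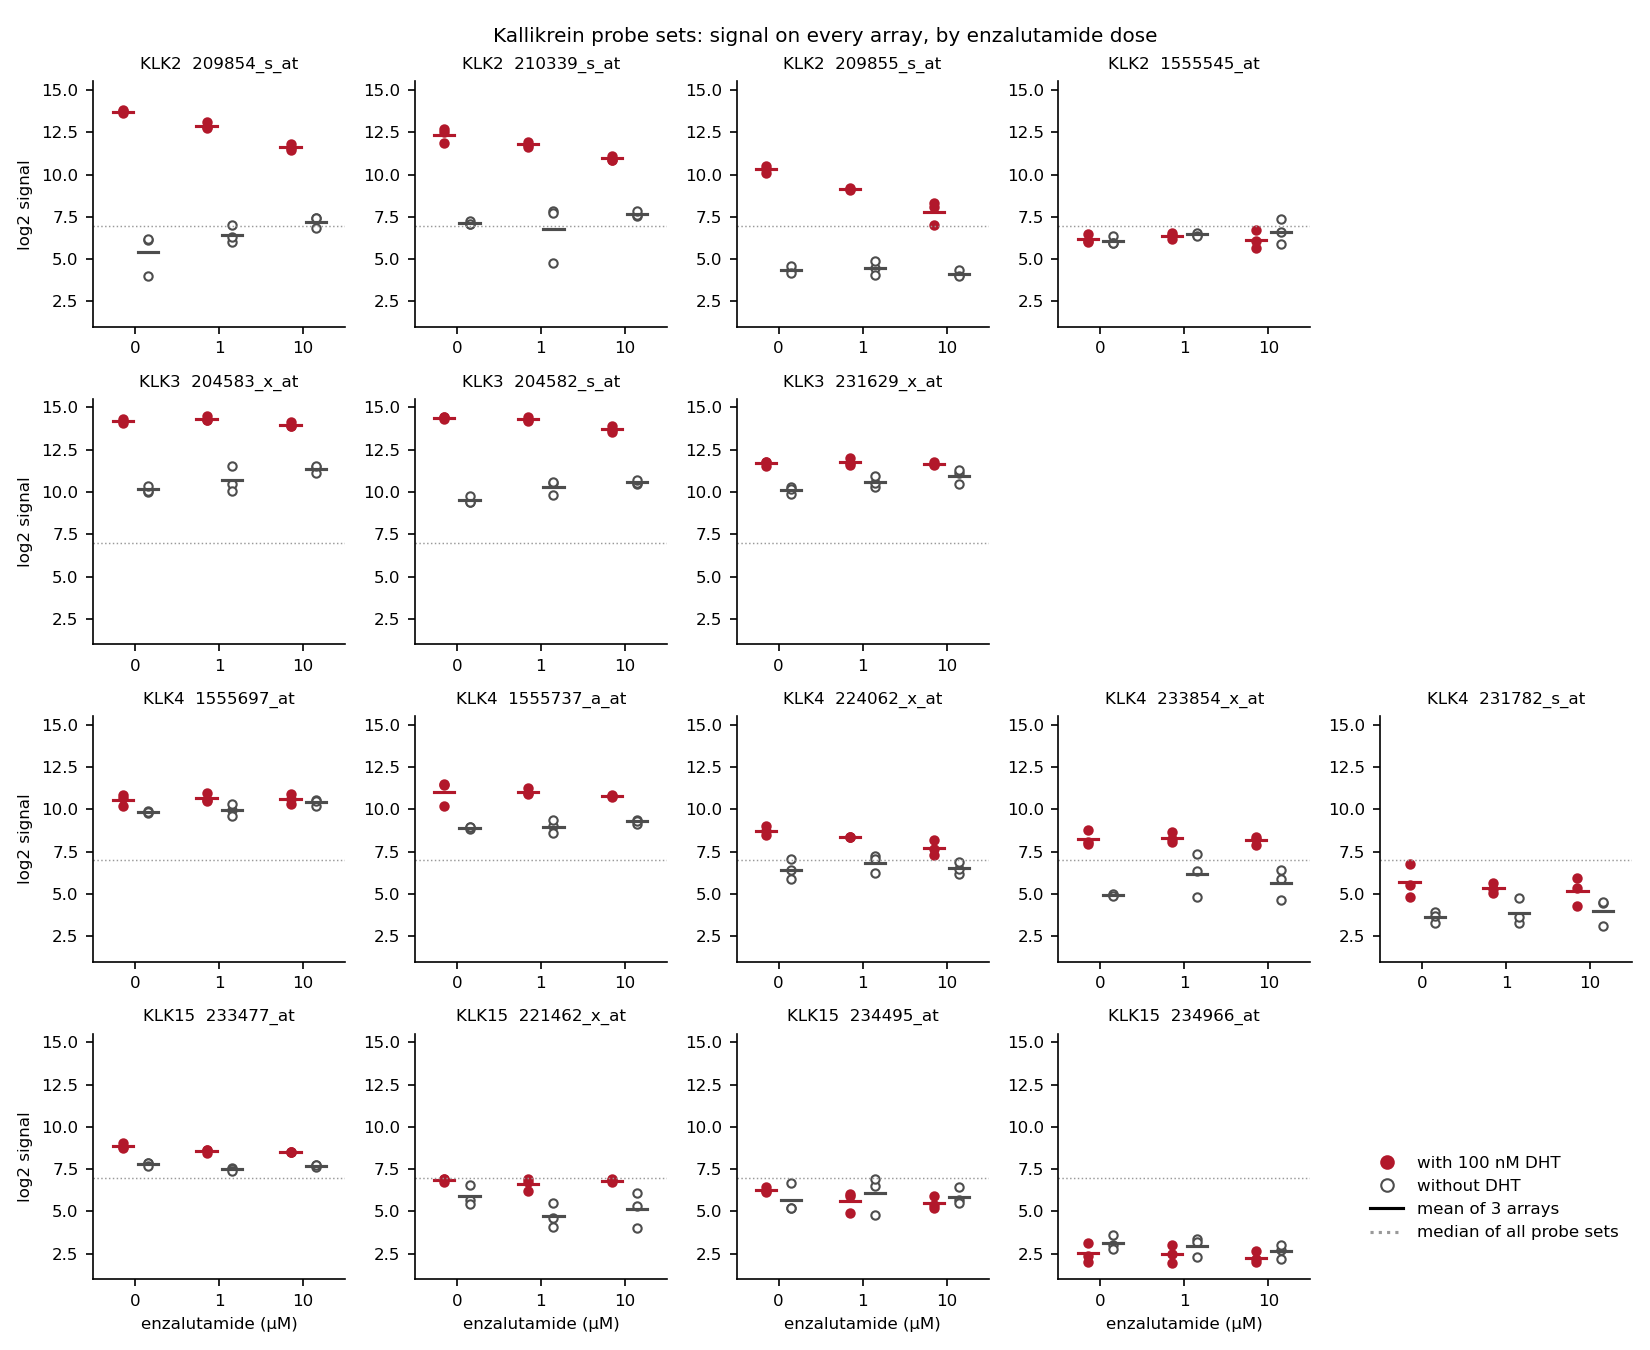
Log2 signal of the 16 kallikrein probe sets on each of the 18 arrays (points) by enzalutamide dose on the horizontal axis (0, 1 and 10 µM, evenly spaced), filled with 100 nM DHT and open without it, with a bar for each group mean of 3 arrays and a dotted line at the median of all probe sets, 6.98. In 3 of the 4 KLK2 panels the mean of the filled points steps down with dose, while in the 3 KLK3 panels the mean of the open points climbs and the filled points stay between 11.53 and 14.48.

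The rest of the kallikrein family was measured by 18 probe sets of 11 genes, of which 5 were at or above the median of all probe sets. For DHT against vehicle 5.72% of all probe sets were called, 2.6% higher and 3.12% lower. Of the 18 a single one was called, near that share: 234316_x_at of KLK12, whose product can activate other kallikreins. It read 8.75, 8.26 and 8.83 with DHT and 7.66, 7.90 and 7.65 with vehicle, a rise of 0.88 ± 0.17 (adjusted p = 0.0027). The other KLK12 probe sets were not called and pointed both ways, with 0.54 for 220782_x_at (adjusted p = 0.385) and -1.36 for 233586_s_at (adjusted p = 0.247). The median change of the 18 with DHT was 0.08, beside 2.10 for the 16 probe sets of KLK2, KLK3, KLK4 and KLK15. At an unadjusted p under 0.05, 2 of the 18 were higher and 2 lower with DHT. The share of all probe sets at that threshold is not reported here.

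**Figure D2:**
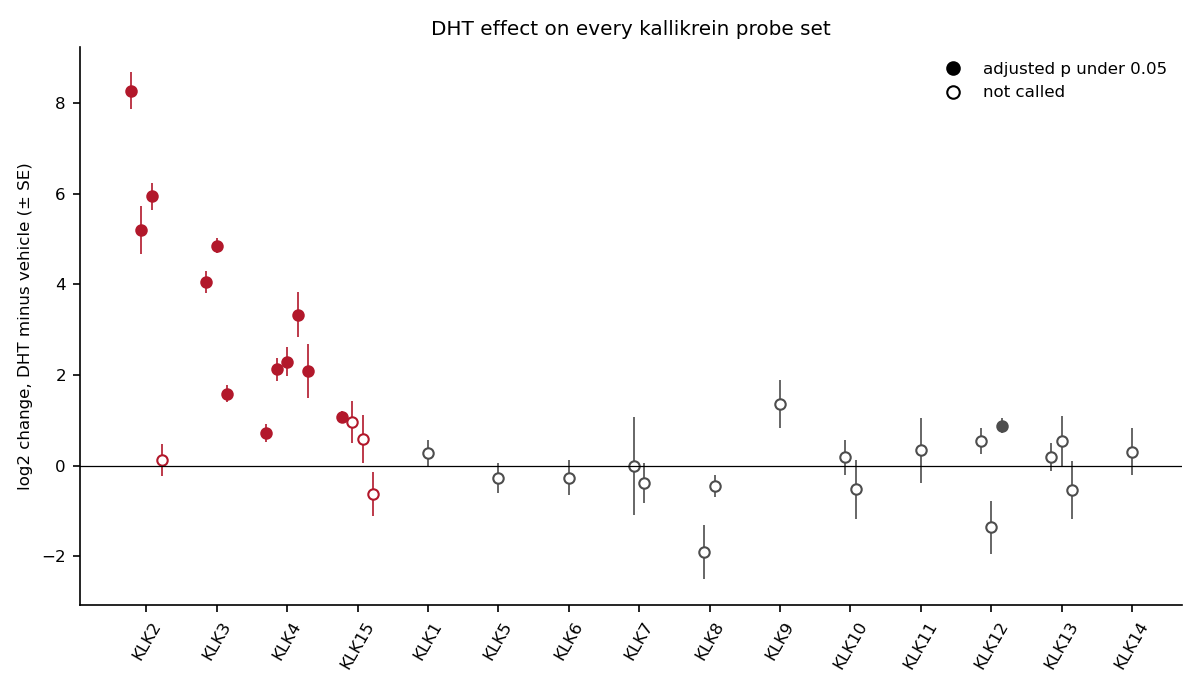
Log2 change with DHT minus vehicle, with its standard error, for every probe set of KLK2, KLK3, KLK4 and KLK15 (red) and of the other 11 kallikrein genes on the array (grey), filled where the adjusted p was under 0.05. Filled points above 1 are all red, and the single filled grey point is KLK12 234316_x_at at 0.88.

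Beside DHT, 10 µM enzalutamide lowered 2 probe sets of KLK2 and 1 of KLK3, whose call depended on which arrays were kept. At 1 µM none of the 16 probe sets was called against DHT alone by limma (2 were lower at an unadjusted p under 0.05), while 1.09% of all probe sets were called, 0.388% higher and 0.705% lower. At 10 µM 3 were called lower and none higher, while 2.69% of all probe sets were called, 1.29% higher and 1.4% lower. The median change of the 16 was -0.17 at 1 µM and -0.31 at 10 µM, against -0.02 and 0.03 over all probe sets. With the high-ratio arrays dropped, 1 was called lower at 1 µM and 4 at 10 µM.

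KLK2 probe set 209854_s_at read 13.12, 12.79 and 12.75 beside 1 µM and 11.78, 11.47 and 11.59 beside 10 µM. All of these were below the DHT arrays, and the doses did not overlap either. The change from DHT was -0.83 ± 0.41 at 1 µM (adjusted p = 0.467) and -2.11 ± 0.41 at 10 µM (adjusted p = 0.00697), the second being 4.30-fold lower in signal. Probe set 209855_s_at read 9.09, 9.12 and 9.21 beside 1 µM and 8.31, 7.04 and 8.08 beside 10 µM. It changed by -1.17 ± 0.30 (adjusted p = 0.0827) and -2.51 ± 0.30 (adjusted p = 7.75e-05), or 5.68-fold lower at 10 µM. Probe set 210339_s_at read 10.85, 10.89 and 11.12 beside 10 µM, below every DHT array, with a change of -1.39 ± 0.53 (adjusted p = 0.217). With the high-ratio arrays dropped it was called lower at both doses, by -0.82 at 1 µM (adjusted p = 0.00196) and -1.64 at 10 µM (adjusted p = 1.41e-06). Over all alternatives its adjusted p at 10 µM ranged from 1.41e-06 to 0.398.

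KLK3 moved less. Probe set 204582_s_at read 14.42, 14.24 and 14.22 beside 1 µM and 13.91, 13.55 and 13.68 beside 10 µM. The values beside 1 µM overlapped those with DHT alone, and the values beside 10 µM were all lower. The change was -0.09 ± 0.16 at 1 µM (adjusted p = 0.892) and -0.67 ± 0.16 at 10 µM (adjusted p = 0.0297), which is 1.59-fold lower in signal. This call was lost in 5 of 18 fits that left out 1 array, and also with the high-ratio arrays dropped (-0.65, adjusted p = 0.0533). The arrays whose omission ended it were any of the 3 DHT replicates and replicates 2 and 3 of DHT with 10 µM, with adjusted p from 0.00203 to 0.145 over the 18 fits. Probe set 204583_x_at read 14.15, 13.88 and 13.88 beside 10 µM, overlapping DHT alone. Its change was -0.22 with a 95% interval from -0.74 to 0.29. For 231629_x_at the change was -0.04, with an interval from -0.43 to 0.36.

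No KLK4 probe set was called beside 10 µM. Probe set 224062_x_at read 8.20, 7.67 and 7.30 beside 10 µM and 8.48, 8.69 and 9.01 with DHT alone, without overlap (95% interval of the change -1.68 to -0.33, adjusted p = 0.128), and the other 4 changed by between -0.53 and 0.02. Probe set 1555737_a_at changed by -0.25 ± 0.25 (adjusted p = 0.729), and by -0.67 (adjusted p = 0.00313) with the high-ratio arrays dropped, the lowest adjusted p over its alternatives, which ran up to 1. KLK15 233477_at read 8.50, 8.50 and 8.49 beside 10 µM, below all 3 DHT arrays, with a change of -0.36 ± 0.13 (adjusted p = 0.179). Between 10 µM and 1 µM beside DHT, none of the 16 was called by limma, with 3 lower at an unadjusted p under 0.05, and 0.0128% of all probe sets were called, all of them lower. A single probe set was called lower with the high-ratio arrays dropped, KLK2 210339_s_at (-0.82, adjusted p = 0.0188, with alternatives up to 1).

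A trend over the 3 doses beside DHT used all 9 arrays. It was tested on the 16 kallikrein probe sets only, so no share of all probe sets can be set beside the count. In an exact two-sided permutation test over all assignments of these arrays to the doses, 6 of 16 probe sets fell with dose after Benjamini-Hochberg adjustment over the 16. The smallest p this test can give is 0.00119. The change per dose step was -1.05 for KLK2 209854_s_at, -1.25 for 209855_s_at (both with an adjusted exact p of 0.00635) and -0.70 for 210339_s_at (0.00952). It was -0.33 for KLK3 204582_s_at (adjusted exact p = 0.0114), -0.50 for KLK4 224062_x_at (0.00635) and -0.18 for KLK15 233477_at (0.0127). The other KLK3 probe sets had steps of -0.11 and -0.02, with adjusted exact p of 0.352 and 0.904.

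FKBP5 and TMPRSS2, other well-known androgen-induced genes, give a scale for these changes. FKBP5, a co-chaperone of steroid receptors, read 13.83, 13.78 and 13.75 with DHT and 10.27, 10.18 and 10.21 with DHT and 10 µM enzalutamide, a change of -3.57 ± 0.17 (adjusted p = 4.16e-09). TMPRSS2, a membrane serine protease, changed by -2.33 ± 0.26 (adjusted p = 2.89e-05). Of 17 androgen-induced genes, listed with earlier results of these data known, 16 were called lower beside 10 µM, against 1.4% of all probe sets. Their median change was -1.31, against 0.02 over all genes. The difference between a kallikrein and each of these genes was tested on each array over the 3 doses. By the exact permutation test, 7 of 8 such differences rose with dose, which means that the kallikrein fell less. The 4 for KLK4 1555697_at and KLK15 233477_at say nothing of the response to enzalutamide, since these probe sets had risen only by 0.73 and 1.08 with DHT and could not have fallen as far by losing that rise. For KLK3 204583_x_at the difference grew by 1.67 per dose step against FKBP5 and by 1.05 against TMPRSS2 (adjusted exact p = 0.00159 for each). This probe set read 14.10 to 14.31 with DHT, near the brightest on each array, and whether it responds in proportion there was not tested. At 10 µM it changed by -0.22, and 204582_s_at of the same gene by -0.67. For KLK2 209854_s_at the difference grew by 0.73 against FKBP5 (adjusted exact p = 0.00544), and by 0.11 against TMPRSS2 (0.105).

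**Figure D3:**
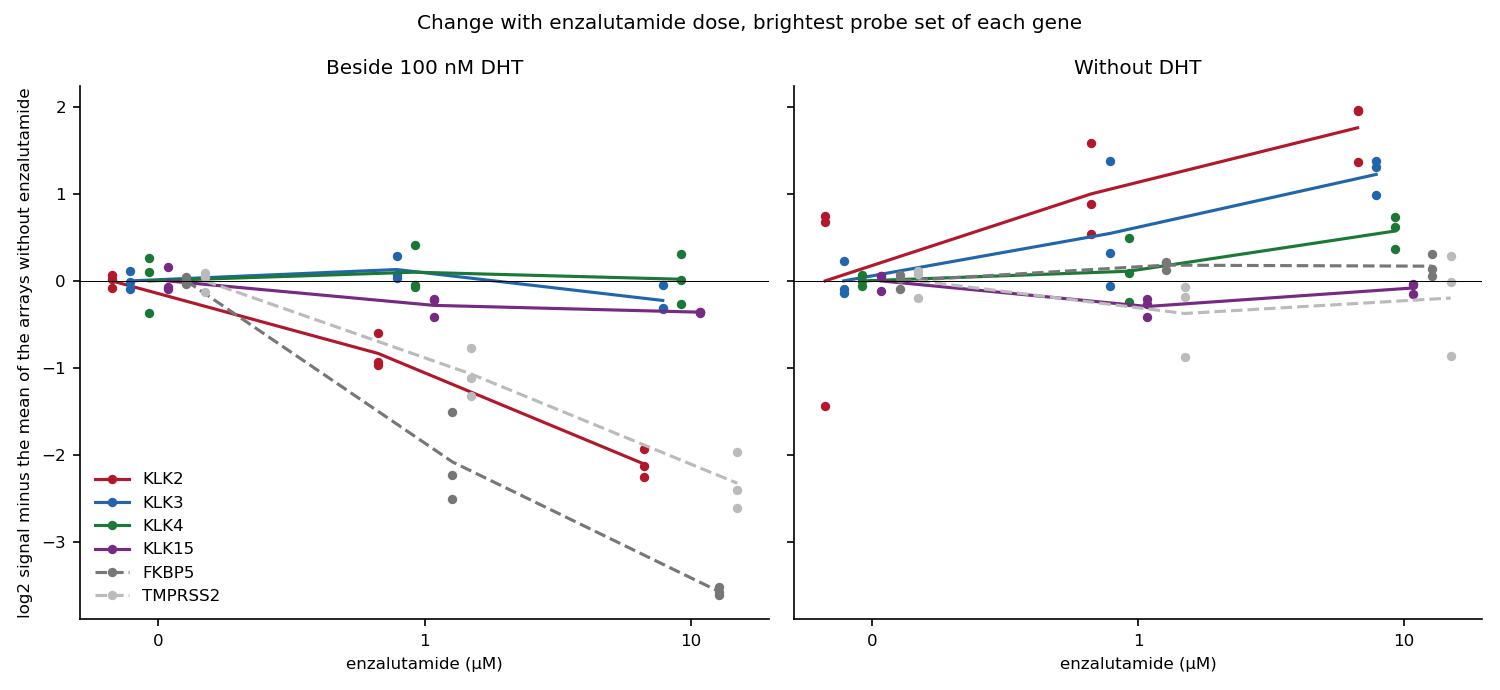
Change in log2 signal with enzalutamide dose (0, 1 and 10 µM, evenly spaced) relative to the mean of the arrays without enzalutamide, beside DHT on the left and without DHT on the right, for the brightest probe set of KLK2, KLK3, KLK4 and KLK15 and for FKBP5 and TMPRSS2 (dashed), with lines through the means of 3 arrays and a point per array. On the left KLK2 ends at -2.11 between KLK3 at -0.22 and FKBP5 at -3.57, and on the right KLK2 ends at 1.76 and KLK3 at 1.22.

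Without DHT, enzalutamide raised a KLK3 probe set, and none of the 16 was called lower. Against vehicle 1 of 16 probe sets was called higher at 1 µM and 1 at 10 µM, the KLK3 probe set 204582_s_at each time. Of all probe sets 0.802% were called at 1 µM, 0.244% higher and 0.558% lower, and 0.125% at 10 µM, 0.0513% higher and 0.0732% lower. At an unadjusted p under 0.05, 5 of the 16 were higher and 2 lower at 1 µM, and 5 higher and 0 lower at 10 µM. With the high-ratio arrays dropped 1 was called higher at 1 µM, KLK2 210339_s_at in place of KLK3 204582_s_at, and 3 at 10 µM, KLK2 210339_s_at and KLK3 204583_x_at besides 204582_s_at. This KLK3 probe set read 9.82, 10.51 and 10.58 at 1 µM and 10.49, 10.54 and 10.70 at 10 µM, all above the vehicle arrays. The change was 0.78 ± 0.16 (adjusted p = 0.0344) and 1.05 ± 0.16 (adjusted p = 0.0133), the second being 2.07-fold. The call at 1 µM was lost when 1 array was left out in 5 of 18 fits (vehicle replicates 1 and 2, enzalutamide 1 µM replicates 2 and 3, replicate 2 of DHT with 1 µM), with adjusted p from 0.00273 to 0.145, and also with the high-ratio arrays dropped. The call at 10 µM was also lost in 5 of 18 (vehicle replicates 1 and 2 and each enzalutamide 10 µM replicate), with adjusted p from 0.000912 to 0.102 and a change that stayed between 0.99 and 1.16.

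The other KLK3 probe sets were higher than vehicle on every 10 µM array too, without passing the test on all 18 arrays. Probe set 204583_x_at read 11.46, 11.13 and 11.53 at 10 µM (1.22 ± 0.24, adjusted p = 0.0631), and with the high-ratio arrays dropped it was called (1.22, adjusted p = 0.0129, where its alternatives ranged from 0.00132 to 0.229). Probe set 231629_x_at read 11.13, 10.50 and 11.28 (0.86 ± 0.19, adjusted p = 0.0868). KLK2 209854_s_at read 7.41, 6.82 and 7.41 at 10 µM, above every vehicle array, with a change of 1.76 ± 0.41 (adjusted p = 0.115). KLK2 210339_s_at read 7.54, 7.58 and 7.86 at 10 µM, again above every vehicle array, with a change of 0.52 ± 0.53 (adjusted p = 0.818). At 1 µM it read 7.85, 4.75 and 7.75, the low value being on the array with the high ACTB ratio, with a change of -0.36 ± 0.53 (adjusted p = 0.817). With the high-ratio arrays dropped it was called higher at 1 µM (0.66, adjusted p = 0.034) and at 10 µM (0.52, adjusted p = 0.0479), while over its alternatives the adjusted p ran up to 0.903 and 0.913. Another KLK2 probe set, 209855_s_at, stayed dim at 4.06, 4.37 and 4.02, with a change of -0.22 (95% interval -0.86 to 0.41). At 10 µM KLK4 1555697_at changed by 0.57 ± 0.20 (adjusted p = 0.314) and KLK15 233477_at by -0.08 (95% interval -0.35 to 0.19). At 1 µM KLK15 233477_at was below every vehicle array (-0.29, adjusted p = 0.298), and the dim KLK15 221462_x_at changed by -1.18 (adjusted p = 0.25). In the exact trend test over dose without DHT, 5 of 16 rose at an unadjusted p under 0.05. They were all 3 KLK3 probe sets, KLK2 209854_s_at and KLK4 1555697_at. After adjustment 0 passed, the lowest adjusted exact p being 0.0619. No share of all probe sets stands beside the count of 5, since only the 16 were tested. FKBP5 changed by 0.17 ± 0.17 (adjusted p = 0.808) and TMPRSS2 by -0.20 ± 0.26 (adjusted p = 0.874) at 10 µM. Of the 17 androgen-induced genes 1 was called higher at 10 µM and none lower.

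The effect of DHT beside the drug was measured against the same dose of enzalutamide alone, and KLK2 and KLK3 still rose at both doses. Beside 1 µM, 12 of 16 probe sets were called higher with DHT, while 6% of all were called, 3.02% higher and 2.97% lower. Dropping the high-ratio arrays left 10 called, without KLK4 1555697_at (0.54, adjusted p = 0.1, with alternatives from 0.00818 to 0.193) and KLK15 221462_x_at (1.56, adjusted p = 0.103, with alternatives from 0.00911 to 1). Leaving out 1 array ended these calls in 11 and 4 of 18 fits. Beside 10 µM, 8 of 16 were called higher, while 0.615% of all were called, 0.298% higher and 0.317% lower. Those 8 were KLK2 209854_s_at, 210339_s_at and 209855_s_at, KLK3 204583_x_at and 204582_s_at, KLK4 1555737_a_at and 233854_x_at, and KLK15 233477_at. The call of KLK4 233854_x_at was lost in 5 of 18 fits that left out 1 array. Of the 17 androgen-induced genes 6 were called there, and FKBP5 was not (0.58 ± 0.17, adjusted p = 0.163).

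KLK3 204582_s_at was 3.14 ± 0.16 higher with DHT beside 10 µM (adjusted p = 2.93e-08), an 8.80-fold effect against 29.0-fold without the drug. On the log2 scale 64.6% of its DHT effect was kept. KLK3 204583_x_at kept 64.2% and 231629_x_at 43.2%. KLK2 209854_s_at was 4.40 ± 0.41 higher (adjusted p = 1.94e-05), which was 53.3% of its effect without the drug, and 209855_s_at and 210339_s_at kept 61.6% and 63.3%. KLK4 probe sets kept between 23.7% and 75.8%, and KLK15 233477_at kept 74.1%. These shares are descriptions. Those of KLK2 209854_s_at and 209855_s_at and of KLK4 233854_x_at, 224062_x_at and 231782_s_at depend on mean vehicle levels below the median of all probe sets.

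The difference between the DHT effects, tested as an interaction, was called lower beside 10 µM for 4 of 16 probe sets, while 1.23% of all probe sets were called, 0.571% higher and 0.656% lower. KLK2 209854_s_at had -3.87 ± 0.58 (adjusted p = 0.00166) and 209855_s_at -2.28 ± 0.43 (adjusted p = 0.00998). KLK3 204582_s_at had -1.72 ± 0.22 (adjusted p = 0.000485) and 204583_x_at -1.45 ± 0.34 (adjusted p = 0.0485), a call that was lost in all but 2 of 18 fits that left out 1 array (those without replicate 2 or 3 of enzalutamide 1 µM). The interaction is the change with 10 µM beside DHT less the change with 10 µM without DHT. For 204582_s_at these changes were -0.67 and 1.05, so both made the interaction more negative. For 204583_x_at those changes were -0.22 and 1.22. For KLK2 209854_s_at they were -2.11 and 1.76. For KLK2 209855_s_at they were -2.51 and -0.22, so there the lower level with DHT made up the whole of it. With the high-ratio arrays dropped 6 of 16 were called, with KLK2 210339_s_at and KLK4 1555737_a_at added. Beside 1 µM none of the 16 was called by limma (3 were lower at an unadjusted p under 0.05), while 0.976% of all probe sets were called, 0.496% higher and 0.48% lower. KLK2 210339_s_at was called lower there with the high-ratio arrays dropped (-1.47, adjusted p = 0.00133, with alternatives up to 0.984).

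**Figure D4:**
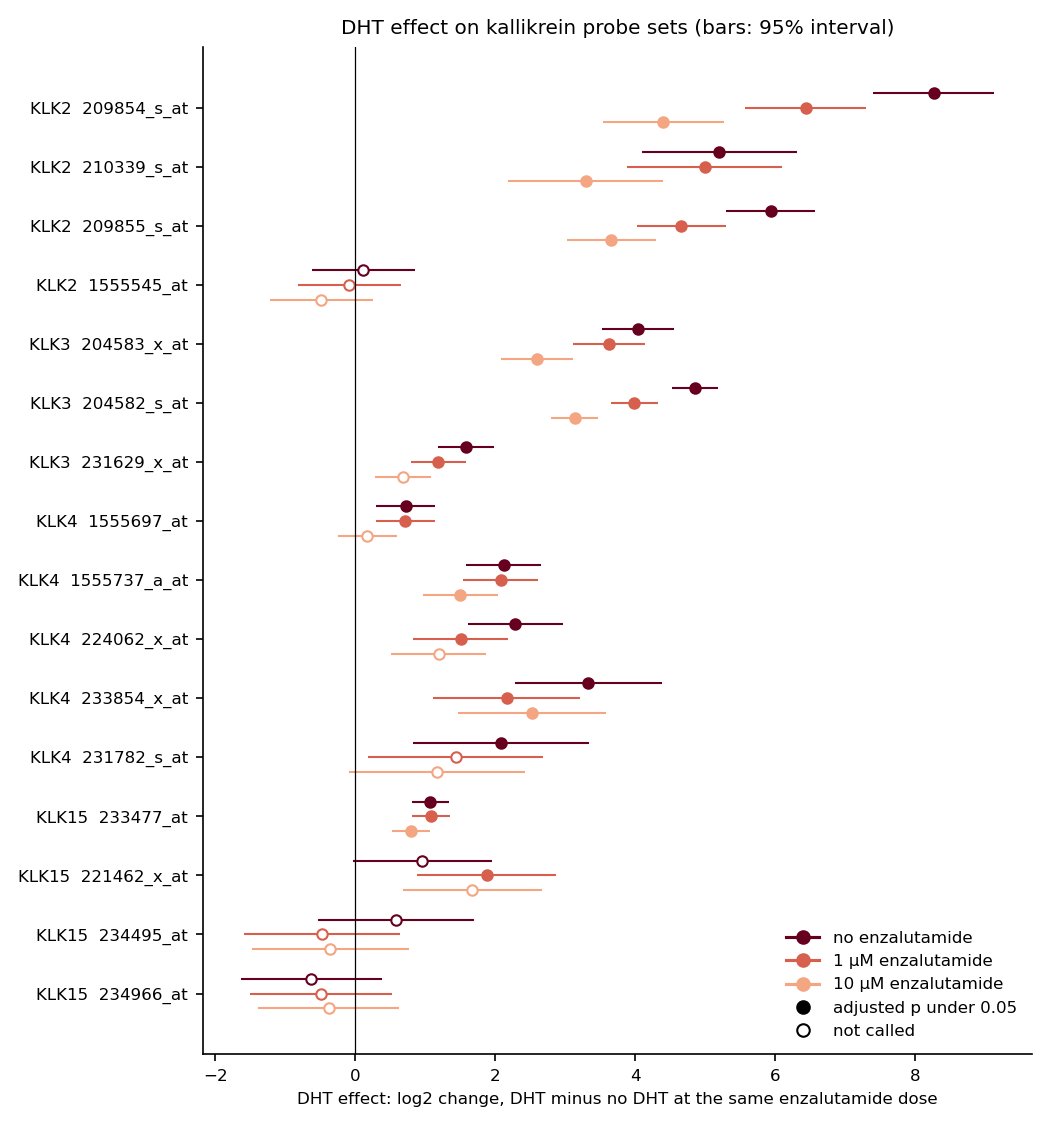
Log2 change with DHT at each enzalutamide dose, against the same dose without DHT, for the 16 probe sets, with 95% intervals and filled points where the adjusted p was under 0.05. The dark, middle and light points are without drug, beside 1 µM and beside 10 µM, and for KLK3 204582_s_at they stand at 4.86, 3.99 and 3.14.

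The 6 groups took the same order in the brightest probe sets of KLK2 and, with 1 exchange, KLK3. KLK2 209854_s_at averaged 5.45 with vehicle, 6.45 with enzalutamide 1 µM and 7.21 with 10 µM. With DHT it averaged 13.72, 12.89 beside 1 µM and 11.62 beside 10 µM. Neither dose of enzalutamide without DHT was called apart from vehicle, and these doses were not tested against each other. DHT was not called apart from DHT with 1 µM, nor DHT with 1 µM from DHT with 10 µM (adjusted p = 0.667). KLK3 204583_x_at averaged 10.15, 10.69 and 11.37 without DHT at 0, 1 and 10 µM, and 14.19, 14.33 and 13.97 with DHT, where the 3 groups were not called apart from each other. KLK4 1555697_at averaged 9.85, 9.96 and 10.43 without DHT and 10.58, 10.68 and 10.60 with it, and at 10 µM the groups with and without DHT overlapped (0.17, 95% interval -0.25 to 0.59). KLK15 233477_at averaged 7.78, 7.49 and 7.70 without DHT and 8.86, 8.58 and 8.50 with it.

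Across the 18 arrays the 66 pairs of probe sets called for DHT correlated with r from 0.618 to 0.987 and a median of 0.880, a description that the contrast between arrays with and without DHT dominates. The highest was between KLK2 209854_s_at and KLK3 204582_s_at. Among 12748 bright genes outside the family, those most like KLK2 209854_s_at included MGC13170 (r = 0.978), PIGH, SQLE and PDIA5. SQLE, squalene epoxidase of sterol synthesis, came first for KLK3 204583_x_at (r = 0.979), followed by MGC13170, PIGH, GPR158 and PDIA5. For KLK15 233477_at the list included SLC45A3, also called prostein (r = 0.977), COTL1, GNMT and PIGH. KLK4 1555697_at was followed less closely, by TMEM120A (r = 0.864), AADAT, LYPLA2, ALG8 and TMEM52.

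Of 19 genes for inhibitors, substrates and receptors of kallikreins, 11 were at or above the median of all probe sets. DHT raised 1 and lowered 1 of the 19, while 2.6% of all probe sets were called higher and 3.12% lower. Counts of 1 each way say nothing about the list as a whole. F2RL1, the protease-activated receptor PAR2 that KLK4 can cleave, read 11.06, 11.21 and 11.14 with DHT against 10.15, 10.49 and 10.23 with vehicle (0.85 ± 0.10, adjusted p = 2.82e-05). FN1, fibronectin, a matrix protein that KLK2 and KLK3 can cut, read 10.35, 10.62 and 10.86 with DHT against 11.69, 11.90 and 11.71 with vehicle (-1.16 ± 0.13, adjusted p = 1.77e-05). Beside DHT, enzalutamide moved both the other way: F2RL1 changed by -0.47 ± 0.10 at 1 µM (adjusted p = 0.0297) and -0.60 ± 0.10 at 10 µM (0.00215), and FN1 by 0.76 ± 0.13 (0.00588) and 0.97 ± 0.13 (0.000292). IGFBP3, a growth factor binding protein and KLK3 substrate, changed by -1.02 ± 0.24 at 10 µM (adjusted p = 0.0264). SPINT1, an inhibitor of serine proteases, averaged 9.89 with enzalutamide 1 µM against 10.75 with vehicle (-0.86 ± 0.14, adjusted p = 0.0126), and was 0.74 ± 0.14 higher with DHT and 1 µM than with 1 µM alone (adjusted p = 0.00373).

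FOXA1, a pioneer transcription factor of prostate cells, averaged 11.95 at 10 µM without DHT against 12.44 with vehicle (-0.50 ± 0.09, adjusted p = 0.0341), and fell by 0.60 at 1 µM (adjusted p = 0.00779). GATA2 fell by 0.41 with DHT (adjusted p = 0.00505) and was 0.46 higher with DHT and 1 µM than with DHT alone (adjusted p = 0.00786). HOXB13 was not called, with -0.60 ± 0.24 for DHT (adjusted p = 0.192).

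In the authors' deposited table, 11 of the 16 kallikrein probe sets were marked as differing between groups, against 6.8% of all probe sets, and 10 were marked for vehicle over DHT, against 4.65%. The authors' deposited table marked 2 for DHT over DHT with 1 µM, both of KLK2, against 1.31% of all. For DHT over DHT with 10 µM the authors' deposited table marked 5, against 2.8% of all: 3 of KLK2, KLK3 204582_s_at and KLK15 233477_at. For vehicle over enzalutamide 10 µM the authors' deposited table marked 2, KLK3 204583_x_at and 204582_s_at, against 0.48% of all.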

How the data were processed

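RNA from 18 samples of LNCaP cells was labelled with biotin and hybridised to 1-colour oligonucleotide arrays, per the labels' protocols. The deposited values are log2 signals per probe set, judged from their range. MAS5 is named, with no version, per the submitters' processing notes, and no further step is given in the sources used here. The 2% trimmed mean signal was between 500.05 and 500.06 on all arrays. The authors deposited p-values and marks per probe set for each pair of groups, quoted only where named. Values were used as deposited, without further normalization or filter, and 62 control probe sets were left out.

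limma 3.58.1 in R 4.3.3 fitted 6 group means to 54613 probe sets, and moderated two-sided p-values (eBayes, variance trend on brightness) were adjusted by Benjamini-Hochberg over all probe sets. A probe set was called at an adjusted p under 0.05. Shares of all probe sets are shares of calls, and counts at an unadjusted p under 0.05 have no such share beside them. Errors after ± are standard errors of the fit. Differences are log2, first group minus second. The number of arrays, 3 a group, limits the precision. Dose trends used an exact permutation test (Python 3.11.15, numpy 2.4.6) over doses scored as evenly spaced steps. Genes in lists and in likeness are their brightest probe set, with symbols updated through a RefSeq gene table, which also gave the positions and promoter windows. All member probe sets are reported, other kallikreins and partners where called. The fit was tested on simulated data. The genes and lists were chosen with earlier results of these data known. Alternatives were array centring, quantile normalization, brightness filters and floors, no trend, only the groups compared, a replicate block, and leaving out arrays. Results for some genes of the lists are not reported here.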

Additional observations from a re-analysis of the deposited data

Results flagged for a closer look

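The effect of DHT differed between cells with and without 10 µM enzalutamide for 4 kallikrein probe sets, by the interaction term of the limma fit, which called 1.23% of all probe sets and 0.656% as lower. KLK2 209854_s_at had -3.87 (adjusted p = 0.00166), with DHT effects of 4.40 beside the drug and 8.27 without it. KLK2 209855_s_at had -2.28 (adjusted p = 0.00998), with 3.66 beside the drug and 5.94 without it. KLK3 204582_s_at had -1.72 (adjusted p = 0.000485), with 3.14 and 4.86, and KLK3 204583_x_at had -1.45 (adjusted p = 0.0485), with 2.60 and 4.05, in the same order.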

How the results depend on the processing

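No call turned round in any alternative. Direction was checked only for values called in the main fit. Other values could change sign, as KLK2 210339_s_at did for 1 µM against vehicle, from -0.36 to 0.66 with the high-ACTB arrays dropped. Of 2880 values from fits that left out 1 array, 2793 kept their side of the threshold, 76 lost a call and 11 gained one. Of 1250 values from the other alternatives, 1190 kept their side of the threshold, 30 lost a call and 30 gained one. For called probe sets, limma with only the brightest probe set of each gene gave 4 of 4 for DHT against vehicle and 4 for DHT with 1 µM against 1 µM. It gave 3 for DHT with 10 µM against 10 µM, 1 for DHT with 10 µM against DHT and 2 for the interaction at 10 µM, since fewer probe sets were tested. This setting also required a mean over all arrays at or above the median of all probe sets. KLK2 209854_s_at, at 5.45 with vehicle and 6.45 with 1 µM, passed through its brighter groups. These counts are therefore no separate support for the DHT calls. For 1 µM against vehicle the count was 0 with centring, the brightest probe sets, no trend, the floor and only the groups compared. For 10 µM against vehicle it was 2 with quantile normalization, the brightness filter, the brightest probe sets, only the groups compared and the replicate block, 0 with no trend and 3 with the high-ACTB arrays dropped. For DHT with 1 µM against DHT it was 2 with the floor and with only the groups compared, and 1 with the high-ACTB arrays dropped. For DHT with 10 µM against DHT with 1 µM it was 1 in each of these 3 settings. For the interaction at 1 µM it was 1 with quantile normalization, the brightness filter, the floor and the high-ACTB arrays dropped. Leaving out 1 array gave 10 to 12 calls for DHT, 0 to 1 for 1 µM, 0 to 2 for 10 µM, 0 to 1 and 2 to 4 beside DHT at 1 and 10 µM, 9 to 12 and 7 to 8 for DHT beside 1 and 10 µM, 0 between the doses beside DHT, and 0 to 1 and 3 to 5 for the interactions. The causes were not tested.

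The exact trend with 10 µM against no drug only gave 0 calls beside DHT and 0 against the comparators, because 3 against 3 arrays cannot go below p = 0.1. Centring gave 3 rising trends without DHT. Leaving out 1 array gave 6 to 7, 0 to 2 and 7 to 8. Pairing of arrays by replicate number was neither shown nor excluded. The 45 same-numbered pairs had correlations of deviations from -0.175 to 0.587 with a median of 0.016. For 90 pairs of other numbers they ran from -0.521 to 0.389 with a median of -0.007. With the replicate number as a block, 11 of 16 were called for DHT and 3 for DHT with 10 µM against DHT. Signal near the background limits the dim probe sets of KLK15, KLK4 and KLK2, whose fold sizes are uncertain.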
